A study of Mus musculus with 28 samples.

Results

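The collagen genes were followed in liver messenger RNA of mice with diet-induced steatohepatitis. A gene was taken as a member when its mouse symbol had the form Col, a number, a, and a number, which gave 44 of the 21935 genes in the table. Of these, 26 had a mean of at least 0.5 CPM (counts scaled to the size of each library) over all 28 mice and entered the tests, together with the other genes past that limit (12752 in all). All mice were male B6.V-Lepob/JRj, which lack leptin, were obtained at 5 weeks of age, and were fed the AMLN diet, with high fat, cholesterol, and fructose contents, for 14 weeks before treatment. They were then dosed orally once daily for 2 weeks with the carboxymethylcellulose vehicle (10 mice) or, at 30 mg/kg, with either obeticholic acid (OCA, 9 mice) or INT-787 (9 mice). Both compounds are semi-synthetic bile acids that activate the nuclear receptor FXR, and INT-787 carries a hydroxyl group that OCA lacks. Every group, the vehicle group included, therefore had both the leptin mutation and the diet, and a lean or chow-fed group was not analysed here.

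Collagens are triple helices of alpha chains, each chain the product of its own gene. Fibrillar collagens (types I, III, and V) form the cross-striated fibers of scar tissue, the basement membrane collagen type IV forms sheets under cells, and type VI forms beaded filaments. Type VIII builds networks, the FACIT collagens (fibril-associated, with interrupted helices) sit on fibril surfaces, and the multiplexins types XV and XVIII lie in basement membrane zones. In injured liver, most fibrillar collagen is made by hepatic stellate cells that have become myofibroblasts, whereas hepatocytes are a known source of type XVIII. Whole liver was sequenced, so fewer cells of a type and less RNA per cell cannot be told apart in any result here.

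Total counts ranged from 1009593 to 22421506 per mouse, with a median of 14864947. Vehicle replicate 6 was the shallow library, and it was left out together with vehicle replicate 5 and OCA replicate 8 in an alternative run. OCA replicate 8 had the highest level of its group for 18 of the 26 tested collagen genes and the lowest for 4 (Col18a1, Col5a3, Col12a1, and Col13a1). Alb, the hepatocyte gene for albumin, averaged 74060 CPM in vehicle mice.

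Expressed per kilobase of exon so that genes can be compared, Col18a1 (chr10:77052178-77166548, minus strand) was the most abundant collagen transcript in vehicle livers, at 128 CPM per kb. Col1a1 (chr11:94936224-94953042, plus strand) followed at 62.5 CPM per kb, Col3a1 (chr1:45311538-45349706, plus strand) at 41.0, Col1a2 (chr6:4504814-4541544, plus strand) at 24.2, Col4a1 (chr8:11198423-11312826, minus strand) at 22.95, and Col14a1 (chr15:55307750-55520803, plus strand) at 22.5. Coordinates are those of GRCm38. At the other end, Col23a1 was the tested member nearest the limit with a mean of 0.546 CPM, and Col4a3 lay just under it with 0.452 CPM. Under the limit stood 18 members, of which 2 (Col10a1, a growth-plate cartilage collagen, and Col26a1) had 0 counts in every mouse. Besides Col4a3, those with a mean of at least 0.1 CPM were Col9a3, Col20a1, Col11a2, Col7a1, and Col24a1. Col7a1, the anchoring fibril collagen of skin, ranged from 0 to 0.33 CPM in vehicle mice and is not reported further.

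The promoters of some members are shown because fibrillar, filament, and network genes that fell with INT-787 can then be read beside the pair that rose (below). Because the printed genes were picked by direction, motifs were not compared between those that fell and those that rose. Each line gives 120 bases before the start, 5′ to 3′ on the gene's strand, from RefSeq (GRCm38.p6), moved outward where an annotated exon covered them. For Col1a2, the RefSeq start used lies downstream of the gene start given above, so the printed stretch is inside that gene model, between its exons. Capitals mark a TATA box (TATAAA), a GC box (GGGCGG), or a Smad element (CAGACA), on either strand. A CCAAT box (CCAAT) and a nuclear receptor half-site (AGGTCA) were searched as well.
Col1a2 (fell), chr6:4505373-4505492, plus strand: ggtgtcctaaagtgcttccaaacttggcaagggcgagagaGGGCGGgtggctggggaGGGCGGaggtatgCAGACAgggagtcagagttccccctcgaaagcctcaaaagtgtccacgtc
Col3a1 (fell), chr1:45311418-45311537, plus strand: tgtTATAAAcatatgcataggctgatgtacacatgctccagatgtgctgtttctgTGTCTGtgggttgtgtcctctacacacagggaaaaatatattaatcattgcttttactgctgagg
Col5a1 (fell), chr2:27886305-27886424, plus strand: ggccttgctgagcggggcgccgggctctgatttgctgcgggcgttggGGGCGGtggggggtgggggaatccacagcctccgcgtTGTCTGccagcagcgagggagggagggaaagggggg
Col6a3 (fell), chr1:90843972-90844091, minus strand: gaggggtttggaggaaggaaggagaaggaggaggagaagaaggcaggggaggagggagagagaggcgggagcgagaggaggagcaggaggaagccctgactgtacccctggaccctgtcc
Col8a1 (fell), chr16:57754738-57754857, minus strand: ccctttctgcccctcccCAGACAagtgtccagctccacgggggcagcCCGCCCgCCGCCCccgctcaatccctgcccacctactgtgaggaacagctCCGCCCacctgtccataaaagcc
Col5a3 (rose), chr9:20815068-20815187, minus strand: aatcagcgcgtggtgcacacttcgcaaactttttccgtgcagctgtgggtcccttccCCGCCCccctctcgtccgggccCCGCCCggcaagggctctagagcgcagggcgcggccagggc
Col18a1 (rose), chr10:77166549-77166668, minus strand: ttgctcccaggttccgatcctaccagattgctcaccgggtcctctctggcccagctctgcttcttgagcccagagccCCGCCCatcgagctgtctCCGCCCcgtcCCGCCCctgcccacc

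Col3a1 is the member of this set with a TATA box, and Col6a3 has none of the marked elements in the printed stretch. Of the 26 tested members, 22 matched RefSeq windows (24 windows, since some genes have more than 1 start), and Col1a1, Col5a2, Col12a1, and Col14a1 were not among the windows used here. In the 250 bases before the start, a GC box lay in 16 of the 24 windows, beside 32.7% of all 32851 windows of that length. The CCAAT box was in 7 of 24 (33.8% of all windows), the Smad element in 5 of 24 (17.1%), the half-site in 3 of 24 (14%), and the TATA box in 2 of 24 (12.4%). Col4a1 and Col4a2 are annotated head to head on chromosome 8 with first exons that overlap by 22 bp, and their promoters are not printed. A match describes letters in a window and says nothing on whether a factor binds there.

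With INT-787, 13 of the 26 tested collagen genes fell and 2 rose compared with vehicle, by the quasi-likelihood test of edgeR (Benjamini-Hochberg adjustment, 12752 genes). Over all genes tested, 9.52% fell and 10.1% rose. The median log2 fold change was -0.61 for the collagen genes and -0.0021 for all genes. Fibrillar collagens fell in 5 of 7 tested members with a median of -1.10, basement membrane collagens in 2 of 5 with a median of -0.34, and beaded filament collagens in 3 of 5 with a median of -0.69. One of the 2 network members, 1 of the 3 FACIT members, and 1 of the 2 multiplexins also fell, and neither transmembrane member passed the test. The pair that rose was Col5a3, a fibrillar chain, and Col18a1, a multiplexin.

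**Figure D1:**
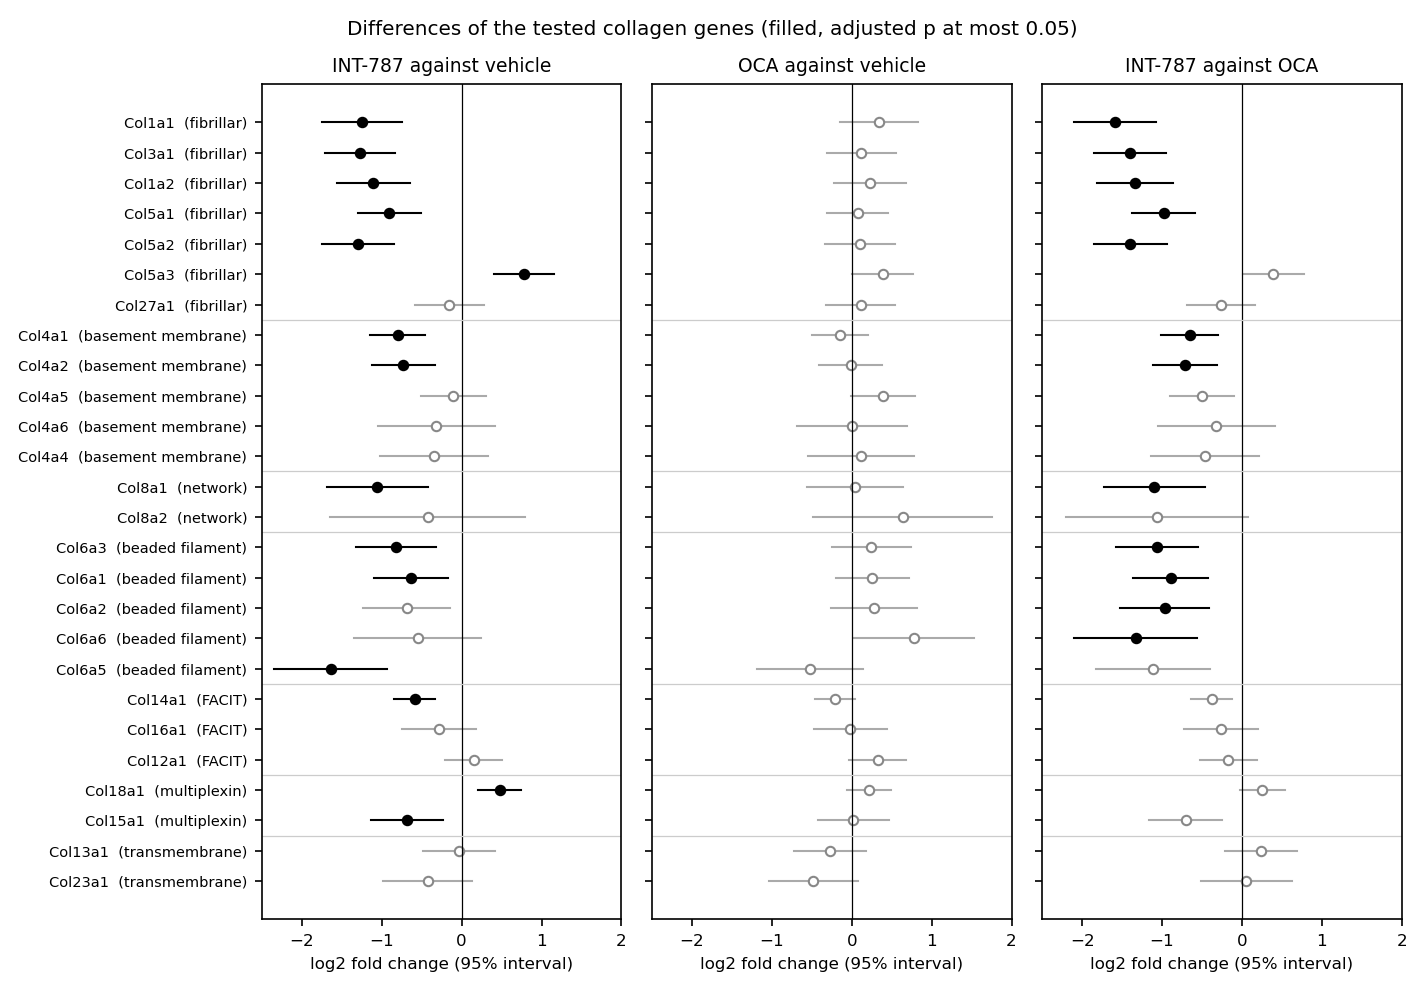
Log2 fold change of each of the 26 tested collagen genes (points) with its 95% interval (lines) in 3 comparisons, grouped by class from top to bottom. Filled points have an adjusted p of at most 0.05. With INT-787, 13 points are filled on the lower side and 2 on the higher side against vehicle, none is filled for OCA, and 12 are filled on the lower side against OCA.

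Type I collagen, the main protein of fibrous scar, is built from the products of Col1a1 and Col1a2. Col1a1 ranged from 268 CPM through a median of 368 to 717 in vehicle mice, from 327 through 415 to 1120 in OCA mice, and from 72.1 through 176 to 287 in INT-787 mice. The INT-787 mice overlapped with the lowest vehicle mice but lay below all OCA mice. Col1a1 fell by 57.8% with INT-787 compared with vehicle (log2 fold change -1.24, SE 0.25, adjusted p = 0.000436 by edgeR). Col1a2 ranged from 224 through 284 to 487 CPM with vehicle, from 221 through 300 to 816 with OCA, and from 61.3 through 145 to 211 with INT-787. Here every INT-787 mouse was below every mouse of both other groups. Col1a2 fell by 53.5% compared with vehicle (log2 fold change -1.10, SE 0.23, adjusted p = 0.000629 by edgeR).

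Col3a1, the type III chain that accompanies type I in early scar, ranged from 280 through 355 to 771 CPM with vehicle, from 290 through 353 to 860 with OCA, and from 76.8 through 148 to 243 with INT-787. The INT-787 mice did not overlap with either group, and Col3a1 fell by 58.7% compared with vehicle (log2 fold change -1.28, SE 0.22, adjusted p = 5.62e-05 by edgeR). Col5a2, a type V chain that helps to start fibrils, ranged from 18.7 through 23.7 to 48.3 CPM with vehicle, from 17.4 through 23.97 to 56.4 with OCA, and from 4.89 through 9.48 to 15.7 with INT-787. It too had no overlap between INT-787 and the other groups, and it fell by 59.1% (log2 fold change -1.29, SE 0.22, adjusted p = 6.74e-05 by edgeR). A fall with no overlap of the groups was thus seen for 3 of the 26 members against vehicle (Col1a2, Col3a1, and Col5a2), beside 0.839% of all genes. Against OCA it was seen for 4 of 26 (these and Col1a1), beside 0.314% of all genes.

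Col5a1, the other common type V chain, ranged from 35.4 through 42.7 to 78.1 CPM with vehicle, from 37.3 through 45.9 to 72.2 with OCA, and from 11.6 through 23.7 to 40.7 with INT-787. Of the 9 INT-787 mice, 7 lay below the lowest vehicle mouse, and Col5a1 fell by 46.6% (log2 fold change -0.91, adjusted p = 0.00096 by edgeR). Col5a3, the third type V chain, moved the other way. It ranged from 4.53 through 7.34 to 13.03 CPM with vehicle, from 5.08 through 10.3 to 13.5 with OCA, and from 6.10 through 14.2 to 17.01 with INT-787. The OCA median was between the others, and the groups overlapped. The rise with INT-787 was 71.6% (log2 fold change 0.78, SE 0.19, adjusted p = 0.00295 by edgeR). Col27a1, a fibrillar collagen of cartilage, differed by -0.15 on the log2 scale (95% interval -0.58 to 0.28).

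**Figure D2:**
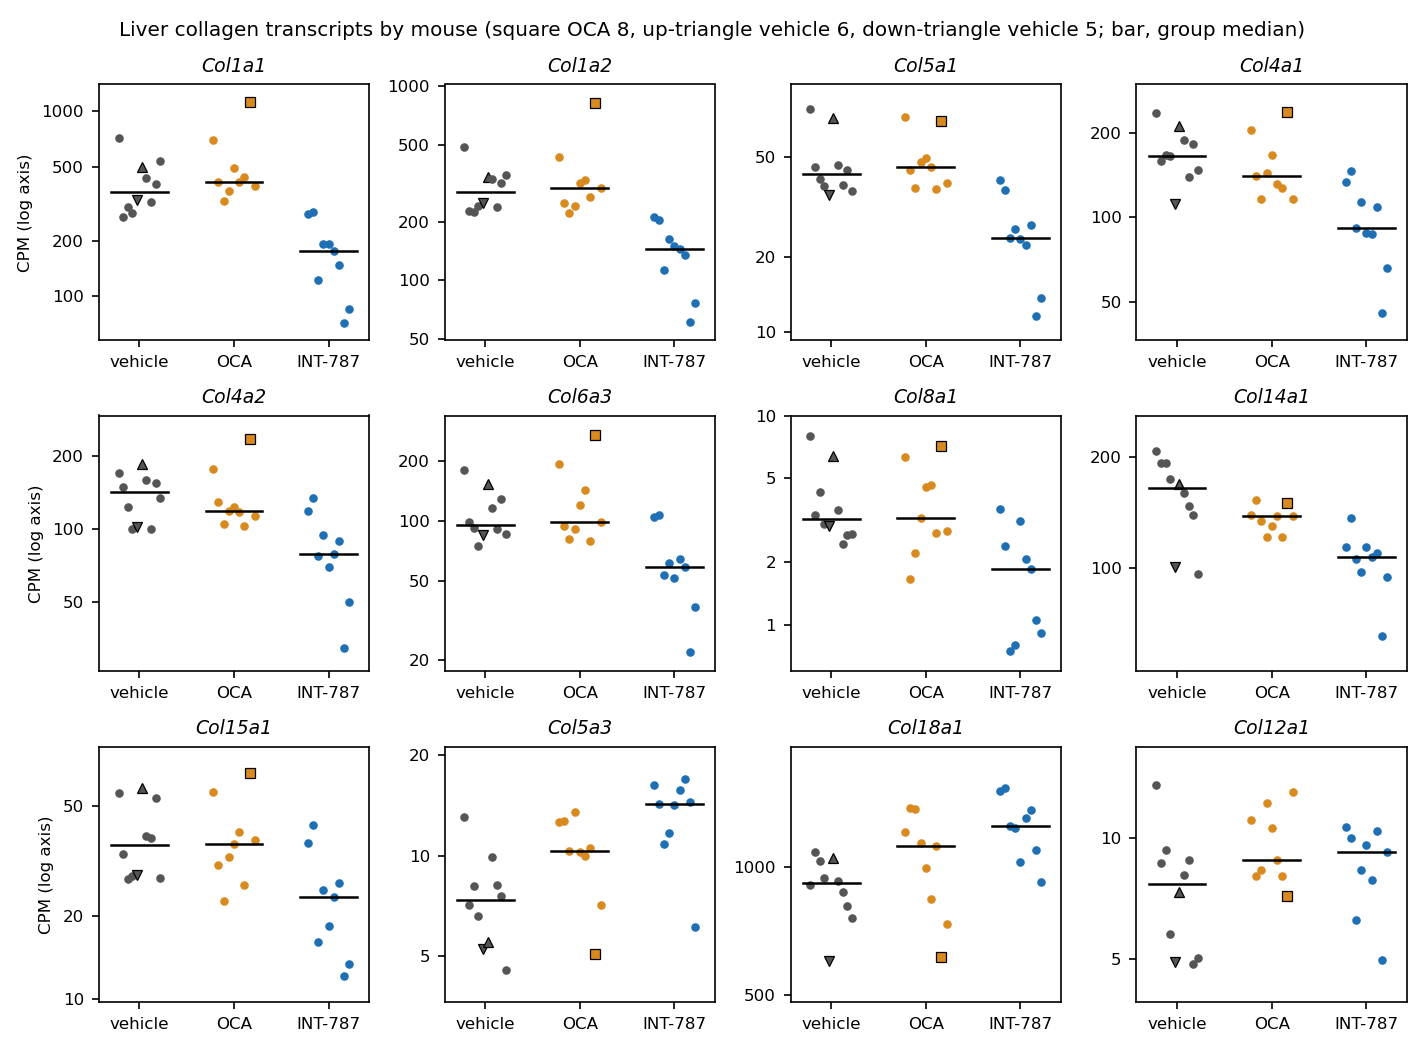
CPM of 12 collagen genes in each mouse on log axes, by group, with the group median as a bar. Squares mark OCA replicate 8, upward triangles vehicle replicate 6, and downward triangles vehicle replicate 5. Medians are lowest with INT-787 for Col1a1, Col1a2, Col5a1, Col4a1, Col4a2, Col6a3, Col8a1, Col14a1, and Col15a1, and highest with INT-787 for Col5a3, Col18a1, and Col12a1, the last without a called difference.

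The basement membrane pair Col4a1 and Col4a2, which form the common type IV helix, fell together with INT-787. Col4a1 ranged from 111 through 166 to 237 CPM with vehicle, from 116 through 140 to 239 with OCA, and from 45.4 through 91.7 to 146 with INT-787. Col4a2 ranged from 99.6 through 142 to 184 CPM with vehicle, from 103 through 119 to 235 with OCA, and from 32.3 through 78.8 to 134 with INT-787. For both genes the highest INT-787 mice overlapped with the lower vehicle mice. Against vehicle, Col4a1 fell by 42.6% (log2 fold change -0.80, adjusted p = 0.000976 by edgeR) and Col4a2 fell by 39.6% (-0.73, adjusted p = 0.00736 by edgeR). Values of Col4a5 (-0.10), Col4a6 (-0.32), and Col4a4 (-0.34), chains known from kidney and other specialized basement membranes, did not pass the test. Their 95% intervals were -0.51 to 0.30, -1.05 to 0.42, and -1.02 to 0.34.

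In the beaded filament class, Col6a1, Col6a2, and Col6a3 make the standard type VI molecule. Col6a3 ranged from 74.6 through 95.6 to 181 CPM with vehicle, from 79.4 through 99.4 to 271 with OCA, and from 21.9 through 58.6 to 107 with INT-787, with overlap in a few mice. It fell by 43.4% with INT-787 (log2 fold change -0.82, adjusted p = 0.0171 by edgeR). Col6a1 ranged from 52.0 through 77.1 to 110 CPM with vehicle, from 56.1 through 72.8 to 216 with OCA, and from 21.4 through 48.8 to 84.1 with INT-787. It fell by 35.7%, close to the threshold (adjusted p = 0.0454 by edgeR), a call that was lost when any of 14 single mice was left out (vehicle replicates 1, 2, 5, 6, 7, 9, and 10, INT-787 replicates 3, 5, 6, 7, 8, and 9, and OCA replicate 6; adjusted p up to 0.0862 over all alternatives). It was also lost with the replicate number as a block (adjusted p = 0.0676 by edgeR), with robust estimation (0.0602), and with no filter (0.0515). Col6a2 ranged from 36.9 through 61.9 to 99.7 CPM with vehicle, from 38.3 through 58.0 to 190 with OCA, and from 17.2 through 39.0 to 74.2 with INT-787. It had a log2 fold change of -0.69 that missed the threshold (95% interval -1.23 to -0.14, adjusted p = 0.0685 by edgeR). Col6a2 passed without INT-787 replicate 1 (adjusted p = 0.0212 by edgeR), vehicle replicate 3 (0.0495), or OCA replicate 8 (0.0267), and with limma-voom (0.0421), 2 groups per fit (0.0403), sets of sample numbers as a factor (0.0386), or the 3 libraries left out (0.0356).

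Alternative type VI chains were scarce. Col6a5 ranged from 0.872 through 1.61 to 6.43 CPM with vehicle, from 0.506 through 1.14 to 2.41 with OCA, and from 0.224 through 0.579 to 1.07 with INT-787. It fell by 67.9%, the steepest fall of the 26 tested members (log2 fold change -1.64, SE 0.35, adjusted p = 0.000896 by edgeR), and the highest vehicle value was from the shallow replicate 6. Col6a6 ranged from 0.681 through 1.21 to 3.67 CPM with vehicle, from 0.873 through 1.56 to 6.87 with OCA, and from 0.209 through 0.788 to 1.82 with INT-787. The extremes of both genes in the OCA group came from replicate 8 on the high side, and Col6a6 did not pass the test against vehicle (adjusted p = 0.354 by edgeR).

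Among the network collagens, Col8a1, a type VIII chain of vessel walls and injured tissue, ranged from 2.43 through 3.2 to 8.00 CPM with vehicle, from 1.66 through 3.23 to 7.12 with OCA, and from 0.746 through 1.84 to 3.55 with INT-787. It fell by 51.8% with overlap of the groups (log2 fold change -1.05, SE 0.31, adjusted p = 0.0146 by edgeR). Its partner Col8a2 averaged 0.609 CPM over all mice and gave a wide 95% interval of -1.64 to 0.79.

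Of the FACIT collagens, Col14a1, which sits on type I fibrils, ranged from 96.2 through 164 to 207 CPM with vehicle, from 121 through 138 to 153 with OCA, and from 65.5 through 107 to 136 with INT-787. The OCA median was between the other medians, and the OCA mice lay inside the range of the vehicle mice and overlapped with the INT-787 mice. Col14a1 fell by 33.6% with INT-787 (log2 fold change -0.59, SE 0.12, adjusted p = 0.000835 by edgeR). Differences for Col16a1 (-0.28, 95% interval -0.74 to 0.18) and Col12a1 (0.15, -0.20 to 0.51) did not pass.

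The multiplexins split. Col15a1 ranged from 27.1 through 35.9 to 57.8 CPM with vehicle, from 22.6 through 36.5 to 65.5 with OCA, and from 12.2 through 23.3 to 42.5 with INT-787. It fell by 37.7% (log2 fold change -0.68, adjusted p = 0.0279 by edgeR), a call that was lost without vehicle replicate 1 or 9 or without INT-787 replicate 3, 5, 8, or 9 (adjusted p up to 0.0594 over all alternatives). Col18a1, whose C-terminal fragment is endostatin, ranged from 600 through 916 to 1081 CPM with vehicle, from 615 through 1117 to 1377 with OCA, and from 922 through 1244 to 1534 with INT-787. The groups overlapped, and the lowest values were those of vehicle replicate 5 and OCA replicate 8. Col18a1 rose by 39.0% with INT-787 (log2 fold change 0.48, SE 0.13, adjusted p = 0.0109 by edgeR). Col13a1, the more abundant of the 2 transmembrane collagens tested, ranged from 0.764 through 2.32 to 3.35 CPM with vehicle, from 0.805 through 1.75 to 2.11 with OCA, and from 1.40 through 1.82 to 2.99 with INT-787. Col13a1 and Col23a1 gave -0.031 and -0.43 on the log2 scale, and neither passed.

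Summed over the fibrillar genes, vehicle mice held 908 to 2120 CPM, OCA mice 925 to 2931, and INT-787 mice 250 to 804, so the INT-787 mice lay below all the others. Fibrillar genes made up 41.0 ± 5.89% (SD, n = 10) of the counts on collagen genes in vehicle mice, 41.9 ± 7.99% (n = 9) in OCA mice, and 22.9 ± 4.27% (n = 9) in INT-787 mice. The multiplexin share, nearly all Col18a1, was 32.8 ± 5.13%, 34.9 ± 10.3%, and 56.9 ± 6.14%. Over all collagen genes without Col18a1, the sum in vehicle livers was 1995 ± 508 CPM, against 2207 ± 900 after OCA and 1024 ± 344 after INT-787. The OCA mean was above that of vehicle through OCA replicate 8 (4367 CPM), since the other 8 OCA mice averaged 1937 ± 419 CPM. These sums are given as a description, with no test.

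**Figure D3:**
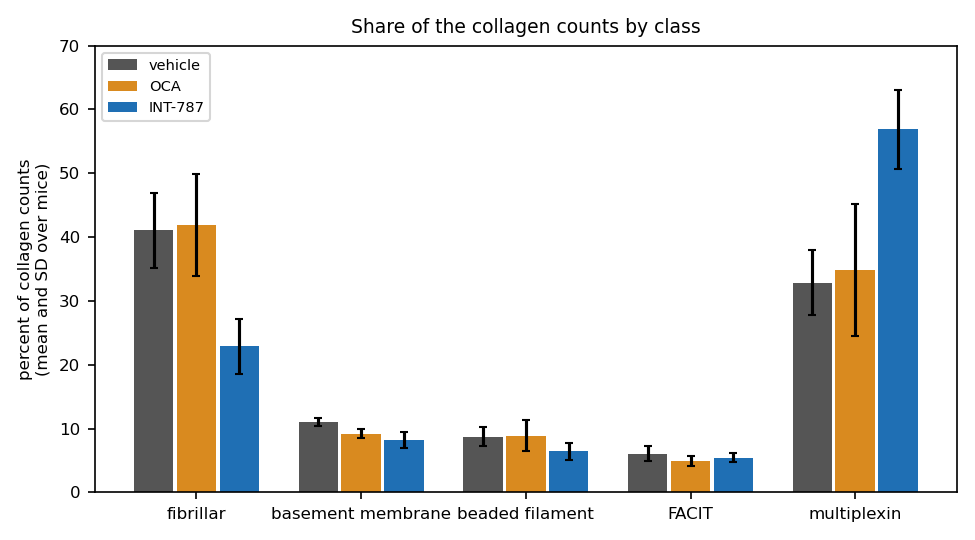
Share of the counts on all 44 collagen genes taken by 5 classes, as the mean (bars) and SD (error bars) over mice in percent, for vehicle, OCA, and INT-787. The fibrillar bar is 41.0% with vehicle and 22.9% with INT-787, and the multiplexin bar is 32.8% and 56.9%.

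With OCA, 0 of the 26 tested collagen genes passed the test against vehicle by edgeR, beside 6.69% of all genes. DESeq2 and limma-voom called 0 as well, and 2 members (Col5a3 and Col6a6) had an unadjusted p under 0.05, beside 18.5% of all genes. The median log2 fold change of the members was 0.11 and that of all genes 0.018. For Col1a1 the difference was 0.34 on the log2 scale (95% interval -0.15 to 0.83), for Col1a2 it was 0.23 (-0.22 to 0.68), for Col3a1 0.12 (-0.31 to 0.55), for Col5a1 0.073 (-0.31 to 0.46), and for Col5a2 0.10 (-0.33 to 0.54). These 5 intervals all included 0. Col4a1 gave -0.15 (-0.49 to 0.20), Col6a3 0.25 (-0.25 to 0.74), Col14a1 -0.21 (-0.46 to 0.04), and Col18a1 0.22 (-0.05 to 0.49). Without OCA replicate 8 the values were 0.12 for Col1a1 (95% interval -0.33 to 0.57), -0.026 for Col1a2 (-0.41 to 0.36), -0.067 for Col3a1 (-0.46 to 0.33), -0.0027 for Col5a1 (-0.39 to 0.39), and -0.098 for Col5a2 (-0.49 to 0.29). Col5a3 was 0.39 higher on the log2 scale with OCA (95% interval 0.0047 to 0.77, adjusted p = 0.262 by edgeR), and it passed only when sets of sample numbers were added as a factor (0.44, adjusted p = 0.0461 by edgeR). Both drugs were compared with the same vehicle mice.

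At the matched dose of 30 mg/kg, 12 of the 26 tested members had lower levels in INT-787 mice than in OCA mice, beside 3.02% of all genes, and 0 were higher. By class the 12 were 5 of 7 fibrillar, 2 of 5 basement membrane, 1 of 2 network, and 4 of 5 beaded filament genes, and no FACIT, multiplexin, or transmembrane gene. At an unadjusted p under 0.05 stood 17 members, beside 18.7% of all genes. The median over the members was -0.71 and over all genes -0.0067. On the log2 scale, INT-787 against OCA, Col1a1 differed by -1.59 (SE 0.25, a change of -66.7%, adjusted p = 0.000175 by edgeR), Col3a1 by -1.40 (adjusted p = 0.000152 by edgeR), and Col5a2 by -1.39 (0.000175). Col1a2 differed by -1.34 (adjusted p = 0.000507 by edgeR), Col6a3 by -1.07 (0.00952), and Col5a1 by -0.98 (0.00243). These 6 genes also passed without OCA replicate 8, the mouse with the highest Col1a1 level (1120 CPM), when the count was 6 of 26.

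The remaining 6 calls were lost when that mouse was left out. They were Col4a1 (-0.65 with all mice, -0.55 without it), Col4a2 (-0.71 and -0.57), Col6a1 (-0.89 and -0.62), Col6a2 (-0.97 and -0.66), Col6a6 (-1.33 and -0.85), and Col8a1 (-1.09 and -0.93), all on the log2 scale and all still negative. The count was 7 without OCA replicate 1 and 7 without INT-787 replicate 9. Leaving out any of 8 single mice ended the call of Col6a6, and any of 8 that of Col8a1. It was any of 7 for Col6a2, 3 for Col4a1, 3 for Col4a2, and 1 for Col6a1. With 2 groups per fit the count was 9, and the calls of Col4a2, Col6a2, Col6a6, and Col8a1 were lost. Col6a2 was also lost with robust estimation, and Col6a6 with sets of sample numbers as a factor (adjusted p = 0.0957 by edgeR). Col14a1 (-0.38, 95% interval -0.63 to -0.12), Col15a1 (-0.70, -1.16 to -0.24), and Col6a5 (-1.12, -1.83 to -0.40) missed the threshold between the compounds. Col14a1 passed with 2 groups per fit (adjusted p = 0.0354 by edgeR), the replicate block (0.0334), sets of sample numbers as a factor (0.0316), and without INT-787 replicate 2 or vehicle replicate 5. Col15a1 passed with DESeq2 (adjusted p = 0.032), limma-voom (0.04), the replicate block (0.0489), and without INT-787 replicate 1 or 2 or OCA replicate 3 or 7. Col6a5 passed with DESeq2 (adjusted p = 0.0279) and without OCA replicate 3, 6, 7, or 9, INT-787 replicate 7, or vehicle replicate 6. The genes that rose with INT-787 against vehicle also missed the threshold between the compounds, since Col5a3 differed by 0.39 (95% interval 0.013 to 0.77, adjusted p = 0.246 by edgeR) and Col18a1 by 0.26 (-0.022 to 0.54, adjusted p = 0.317 by edgeR).

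Chains that share a triple helix or a fibril were compared as ratios within each mouse, in CPM per kb of exon. Because a ratio is taken inside 1 library, its scaling cancels. For 7 ratios and 3 comparisons, 2-sided exact permutation tests were run and adjusted over the 21 results. The ratio of Col5a3 to Col5a1 was 0.197 in vehicle mice, 0.256 in OCA mice, and 0.688 in INT-787 mice (geometric means). On the log2 scale it was -2.35 ± 0.43 (SD, n = 10), -1.97 ± 0.63 (n = 9), and -0.54 ± 0.54 (n = 9). All INT-787 mice (-1.06 to 0.64) lay above all vehicle mice (-3.38 to -1.92) and all OCA mice (-3.46 to -1.49). The difference between INT-787 and vehicle was 1.81 (exact permutation, adjusted p = 0.000227), and between INT-787 and OCA 1.43 (exact permutation, adjusted p = 0.000432). Both genes had passed in opposite directions against vehicle, so this ratio restates those differences within mice.

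Col1a1 and Col1a2 changed unequally between the drugs. Their ratio was 2.54 in vehicle mice, 2.81 in OCA mice, and 2.28 in INT-787 mice, and on the log2 scale it was 0.30 lower with INT-787 than with OCA (exact permutation, adjusted p = 0.00461). Against vehicle the differences were -0.15 for INT-787 (exact permutation, adjusted p = 0.0787) and 0.15 for OCA (exact permutation, adjusted p = 0.0934), which did not pass. The ratio of Col5a1 to Col5a2 was 0.36 higher on the log2 scale with INT-787 than with vehicle (exact permutation, adjusted p = 0.0664). Ratios of Col3a1 to Col1a1, Col4a1 to Col4a2, Col6a1 to Col6a2, and Col6a3 to Col6a1 differed by at most 0.24 on the log2 scale in any comparison and did not pass. Type IV chains, at a ratio of 1.11 in vehicle mice, 1.02 in OCA mice, and 1.07 in INT-787 mice, were near parity in all groups.

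**Figure D4:**
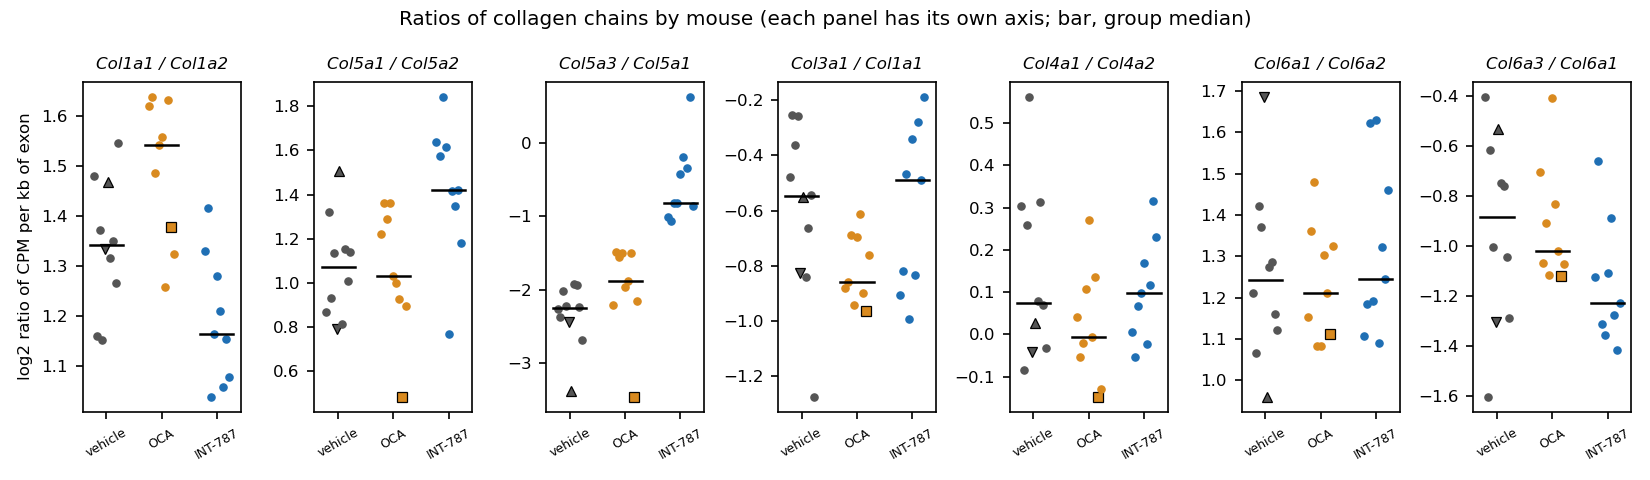
Log2 ratio of 7 pairs of collagen chains in each mouse, in CPM per kb of exon, by group, with the group median as a bar and an axis for each panel. Squares mark OCA replicate 8, upward triangles vehicle replicate 6, and downward triangles vehicle replicate 5. The ratio of Col5a3 to Col5a1 has all INT-787 mice above all other mice.

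Within groups, mice with more Col1a1 also had more of most other collagens. After each group's mean log2 CPM was removed, 18 of 25 members correlated with Col1a1 over the 28 mice (permutation within groups, 100000 resamples, adjusted p of at most 0.05 over the 25). These 18 had r of at least 0.453, a level reached by 8.39% of the other 12751 genes tested, and the median r was 0.70 over the 25 members and -0.019 over all those genes. Col1a2 was closest, with Pearson r = 0.97 (permutation p = 1e-05, adjusted 2.78e-05) and Spearman rho = 0.96 (permutation p = 1e-05, adjusted 5e-05), where 1e-05 is the smallest p these resamples can give. Without the 2 mice farthest from the median Col1a1 deviation, OCA replicate 8 and INT-787 replicate 8, r was 0.97. Col6a3 gave r = 0.89 and rho = 0.81, and r = 0.83 without those mice. Over the 18 members that passed, r without them was at least 0.377 (Col4a5). Without vehicle replicates 5 and 6 and OCA replicate 8, 15 members passed, and Col4a4, Col6a5, and Col8a2 did not (permutation, adjusted p = 0.091, 0.137, and 0.107). In the 10 vehicle mice alone, where the test has less reach, 1 of 25 members (Col1a2, r = 0.98) passed. Some r values were also lower there, as for Col6a1 (0.31, beside 0.76 over all mice), Col16a1 (0.19, beside 0.66), and Col4a5 (0.044, beside 0.57). Others were close, as for Col4a6 (0.72, beside 0.75). Genes share the library of each mouse, so the points carry its depth and composition too.

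Members that did not pass were Col14a1 (r = 0.35, rho = 0.28, permutation p = 0.0663 and 0.157), Col12a1 (r = 0.26, rho = 0.12), Col5a3 (r = 0.091, rho = 0.13, permutation p = 0.657 and 0.522), Col18a1 (r = -0.022, rho = 0.011, permutation p = 0.914 and 0.956), Col27a1, Col23a1, and Col13a1. Their adjusted p values by Pearson ranged from 0.0872 for Col14a1 to 0.914 for Col18a1. Col5a3 and Col18a1, which rose with INT-787, were thus among the members without a detected relation to Col1a1 within groups. OCA replicate 8, with the most Col1a1, had the least Col18a1 of its group, and Col5a3 reached r = 0.41 without it and INT-787 replicate 8.

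**Figure D5:**
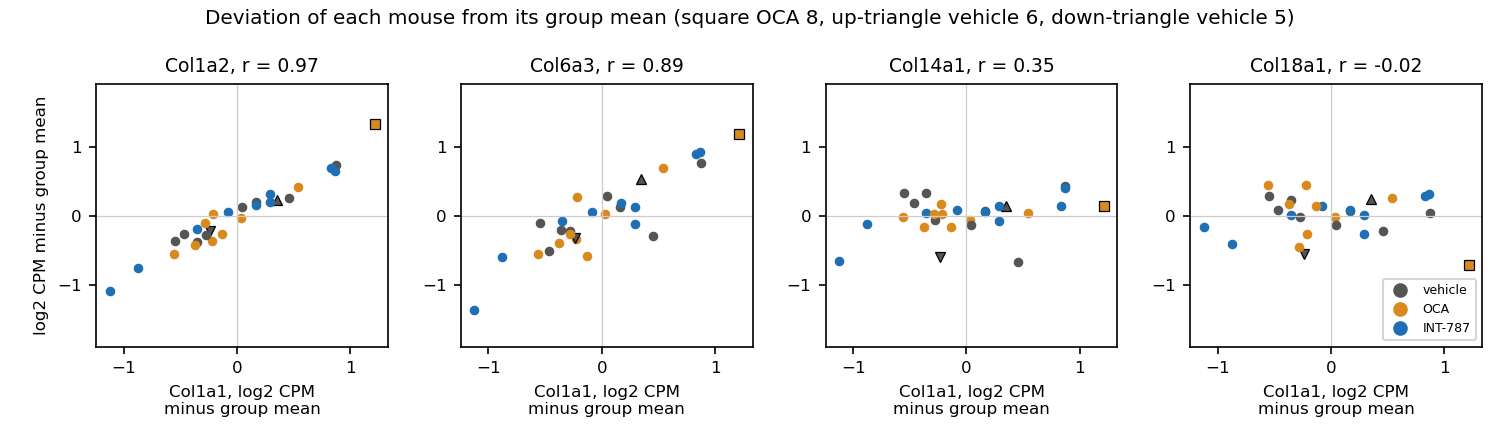
Deviation of each of 28 mice from its group's mean log2 CPM for Col1a1 (horizontal) and for Col1a2, Col6a3, Col14a1, and Col18a1 (vertical), by group. Squares mark OCA replicate 8, upward triangles vehicle replicate 6, and downward triangles vehicle replicate 5. The points follow a line for Col1a2 (r = 0.97) and have no slope for Col18a1 (r = -0.02).

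The genes that fold, trim, cross-link, bind, and degrade collagen were taken from 4 lists with 52 genes, of which 44 were tested. With INT-787, 18 fell and 1 rose compared with vehicle, with OCA 3 fell and 1 rose, and between the drugs 11 were lower with INT-787 and 0 higher. Over all genes tested, 9.52% fell and 10.1% rose with INT-787, 6.69% changed with OCA, and 3.02% had lower levels after INT-787 than after OCA, so the 4 of 44 called with OCA were near the background. Median log2 fold changes over the 44 genes were -0.43, -0.016, and -0.42.

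Among 18 tested genes of collagen folding and secretion, 9 fell and 1 rose with INT-787. Plod2, which hydroxylates lysines for later cross-links, fell from 3.54 ± 1.87 CPM (n = 10) to 1.43 ± 0.34 (n = 9; log2 fold change -1.16, adjusted p = 0.000253 by edgeR). Serpinh1, the collagen chaperone HSP47, fell from 61.6 ± 16.9 to 34.0 ± 9.04 CPM (-0.87, adjusted p = 0.000573 by edgeR). P4ha1, a prolyl hydroxylase subunit, fell by 0.62 on the log2 scale (adjusted p = 0.00235 by edgeR). P4hb, the beta subunit of that enzyme and a general disulfide isomerase, rose with INT-787 (0.31, adjusted p = 0.0116 by edgeR) and with OCA (0.32, adjusted p = 0.0213 by edgeR). Its OCA call was lost with sets of sample numbers as a factor (adjusted p = 0.0674 by edgeR) and with 2 groups per fit (0.075). P4ha2 fell with INT-787 (-0.57, adjusted p = 0.00453 by edgeR) and with OCA (-0.52, 0.0203), the latter a call lost with the replicate block (0.0897). Compared with OCA, INT-787 mice were lower in Crtap (-0.74, adjusted p = 0.00624 by edgeR), Serpinh1 (-0.79, 0.0074), and Fkbp10 (-0.79, 0.0197), which also act on the nascent helix.

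Of 10 tested genes of procollagen trimming and cross-linking, 5 fell with INT-787. The cross-linking oxidases Lox and Loxl2 fell from 7.96 ± 3.55 to 2.28 ± 1.12 CPM (log2 fold change -1.82, adjusted p = 1.97e-05 by edgeR) and from 14.4 ± 3.21 to 7.42 ± 2.09 CPM (-0.99, adjusted p = 1.86e-05 by edgeR). Pcolce, an enhancer of propeptide removal, fell by 0.83 (adjusted p = 0.000407 by edgeR). Adamts14, a procollagen peptidase, fell with INT-787 (-0.91, adjusted p = 0.0134 by edgeR) and with OCA (-0.93, 0.0275), the latter a call lost without vehicle replicate 2 (0.0576), vehicle replicate 3 (0.0558), or OCA replicate 9 (0.0605). Lox (-1.79, adjusted p = 0.000181 by edgeR), Loxl2 (-0.99, 0.000148), and Adamts2 (-0.97, 0.00183) had lower levels after INT-787 than after OCA.

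Of 8 tested collagen receptors, 2 fell with INT-787, Lair1 (-0.76, adjusted p = 0.00429 by edgeR), an inhibitory receptor of leukocytes, and Ddr2 (-0.42, 0.0246), a collagen-binding kinase. Mrc2, an uptake receptor for collagen, was lower with INT-787 than with OCA (-0.91, adjusted p = 0.0235 by edgeR). Of 8 genes of collagen breakdown, the protease inhibitor gene Timp1 (-1.71, adjusted p = 2.67e-07 by edgeR) and the collagenase gene Mmp13 (-1.44, 4.9e-06) fell with INT-787, and Mmp13 fell with OCA (-0.69, adjusted p = 0.0287 by edgeR). That OCA call was lost without vehicle replicate 1, 5, or 8, without OCA replicate 1, 6, or 7, and without the 3 libraries together (adjusted p up to 0.0676 by edgeR). Timp1 (-1.85), Timp2 (-0.67), and Mmp13 (-0.75) were lower in INT-787 mice than in OCA mice (adjusted p = 8.78e-07, 0.0189, and 0.0324 by edgeR). An inhibitor of collagen breakdown and a collagenase thus moved the same way. Without OCA replicate 8, 7 of the 44 genes were called between the drugs in place of 11, and the calls lost were Fkbp10 (adjusted p = 0.0691 by edgeR), Mrc2 (0.0834), Timp2 (0.06), and Mmp13 (0.0573).

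Markers of the collagen-making cells moved in part with the collagens. The counts of markers that fell with INT-787 are to be read against the 9.52% of all genes that fell. Of 7 tested markers of activated stellate cells or myofibroblasts, 5 fell with INT-787 (Acta2, Tagln, Spp1, Vim, and Postn), and the summed level of the 8 listed was 666 to 983 CPM with vehicle, 590 to 1892 with OCA, and 424 to 629 with INT-787. Most of the sum was Spp1, at a mean of 593 CPM in vehicle mice. OCA replicate 8 was the highest of its group in this sum, and Lum alone among these markers rose with OCA (0.71, adjusted p = 0.0474 by edgeR). Between the drugs, beside 3.02% of all genes, 5 of the 7 had lower levels after INT-787, namely Spp1 (-1.12, adjusted p = 0.000145 by edgeR), Lum (-1.09, 0.00346), Acta2 (-1.05, 0.00642), Tagln (-1.03, 5.43e-05), and Vim (-0.70, 0.0138). Of 8 markers of stellate cells in any state, 2 (Des and Lrat) fell, and the sums of 388 to 558, 335 to 496, and 290 to 556 CPM overlapped. Among the other markers of that list, Ecm1 (0.25) and Reln (0.018) had log2 fold changes above 0 without passing. Between the drugs 1 of the 8 passed, Ecm1, which was higher with INT-787 (0.57, adjusted p = 0.00325 by edgeR), while Pdgfrb (-0.62) and Des (-0.34) were below 0 without passing. Portal fibroblast markers fell in 3 of 6 (sums of 195 to 337, 151 to 471, and 142 to 218 CPM), macrophage markers in 3 of 5 (259 to 361, 206 to 442, and 207 to 280 CPM). Most of the portal fibroblast sum was Gas6, at a mean of 213 CPM in vehicle mice. Between the drugs, the portal fibroblast markers Eln (-1.96, adjusted p = 4.95e-05 by edgeR) and Mfap4 (-1.16, 0.0223) and the macrophage markers Cd68 (-0.60, 0.0134) and Trem2 (-0.90, 0.0111) were also lower with INT-787. Marker calls between the drugs are given with all mice only, so what OCA replicate 8 adds to them is not shown. The OCA spread was wide for Vim (140 ± 70.8 CPM, SD), Mfap4 (11.7 ± 10.4), and Trem2 (20.1 ± 11.1). It was narrower for Acta2 (16.1 ± 2.03) and Tagln (20.5 ± 4.23). Endothelial, cholangiocyte, mesothelial, and vascular smooth muscle markers passed in 0 of 6, 0 of 5, 0 of 4, and 0 of 2 in all 3 comparisons. Of 4 hepatocyte markers, Alb rose with INT-787 (0.45, adjusted p = 0.0219 by edgeR) and with OCA (0.63, adjusted p = 0.004 by edgeR). With INT-787 against vehicle the others were at 0.23 (Apoa1), -0.19 (Serpina1c), and -0.33 (Ttr) and did not pass, and Serpina1c was lower with INT-787 than with OCA (-0.64, adjusted p = 0.0321 by edgeR). No marker of these lists was at 0 in all mice, and the part of these cells in the collagen differences was not tested.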

How the data were processed

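Liver messenger RNA of 28 mice was prepared with a stranded TruSeq kit, sequenced on a NextSeq, and aligned by the authors with STAR to GRCm38. The authors deposited raw counts per Ensembl gene without normalization. The counting program and its use of strand are not given in the sources used here. Of 26 tested members, 5 overlap an exon on the opposite strand. Of 21935 genes, 21858 matched a GENCODE M21 symbol, by which the members were found.

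Counts were analyzed with R 4.3.3, edgeR 4.0.16, DESeq2 1.42.0, and limma 3.58.1, and with Python 3.11.15, numpy 2.4.6, pandas 2.3.3, and scipy 1.17.1. Genes with a mean of at least 0.5 CPM were normalized by TMM and fitted with the edgeR quasi-likelihood test in a model of the 3 groups, with a threshold of 0.05 on the Benjamini-Hochberg adjusted p. CPM use TMM-scaled totals. At 1 CPM the shallowest library holds about 1 count. The tests were tried on simulated data. Members and lists were chosen with earlier results of these data known. Every tested member was to be named, with values where it passed in a comparison or led its class per kb, and at most 3 genes of a list with the smallest adjusted p per comparison. Each GEO sample was taken as 1 mouse, and no pair of libraries in a group agreed within sampling noise. Alternatives were other scalings, filters, tools, factors, and left-out mice.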

Additional observations from a re-analysis of the deposited data

Results flagged for a closer look

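In 5 of 78 sets of values (26 genes in 3 groups), 1 mouse stood apart from its group by Dixon's 95% limit on log2 CPM. Chance flags 1 in 20 sets, or about 3.9 here. INT-787 replicate 8 had 65.5 CPM of Col14a1, where the other mice of the group had 94.6 to 136. INT-787 replicate 9 had 6.10 CPM of Col5a3, with the others at 10.8 to 17.01, although Col5a3 rose in that group. Vehicle replicate 1 had 48.3 CPM of Col5a2, with the others at 18.7 to 30.0. Vehicle replicate 6, the shallow library, had 3.67 CPM of Col8a2 (others 0.0727 to 0.824) and 0 CPM of Col23a1 (others 0.476 to 1.15).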

How the results depend on the processing

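Compared with vehicle, the count of changed collagen genes was 15 for INT-787 and lay between 14 and 16 under the other scalings, filters, tools, and factors, and between 13 and 16 with 1 mouse left out. With no filter the 15 were 3 higher and 12 lower, since Col20a1 (2.07, adjusted p = 0.0269 by edgeR), under the 0.5 CPM limit, was added and Col6a1 was lost. For OCA the count was 0 throughout, with 1 mouse left out included, except for 1 gene (Col5a3) with the sample number set as a factor. Between the drugs, the count of 12 lay between 6 and 14 with 1 mouse left out. It was 9 with 2 groups per fit, 14 with DESeq2, and 6 without the 3 libraries together. Pathway genes called were 19 for INT-787 (17 to 22 with 1 mouse left out), 4 for OCA (3 to 5), and 11 between the drugs (7 to 14, and 7 without the 3 libraries together). No log2 fold change that passed under any setting changed its sign under another. Upper-quartile scaling left the collagen calls at 15, 0, and 12, while the share of rises among all calls for INT-787 against vehicle went from 51.5% to 37.6%. Whether mice with the same number are related across groups was not settled. By replicate number, 12 of 27 same-numbered pairs had deviations correlated over 0.1 (between -0.27 and 0.43). Of 27 mice, 9 matched their own number best. By sets of sample numbers, 15 of 25 pairs were over 0.1 (between -0.23 and 0.45). Every same-numbered pair of replicates 1, 2, and 3 was positive (0.11 to 0.43). With a replicate block, 14, 0, and 13 collagen genes and 21, 4, and 13 pathway genes were called. The block ended the call of Col6a1 against vehicle (adjusted p = 0.0676) and that of Col6a6 between the drugs (0.0722), where it added Col14a1 (0.0334) and Col15a1 (0.0489). For OCA it ended the call of P4ha2 (0.0897) and added Ppib on the higher side (0.34, 0.021). Without the 3 libraries, 2 chain ratios passed for INT-787 against vehicle in place of 1 (Col5a1 to Col5a2 added, 0.38) and 1 for OCA in place of 0 (Col5a3 to Col5a1, 0.43), and 3 differences that had not passed changed sign, Col3a1 to Col1a1 with INT-787 (-0.0065), Col5a1 to Col5a2 with OCA (0.089), and Col6a1 to Col6a2 with OCA (0.011). Correlation with Col1a1 passed for 18 members, for 15 without the 3 libraries, and for 1 in vehicle mice alone. The quasi-likelihood fit with edgeR's newer default was added after the data were seen and kept the counts at 15, 0, and 12. The cause of these shifts was not tested.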
